A study of Mus musculus with 6 samples.

Results

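Odorant receptor genes detected in the mouse vomeronasal organ are described here. They are the genes with an Olfr symbol and a number whose level averaged at least 0.2 RPM over 6 libraries, where RPM are the reads of a gene per 1000000 estimated reads of its library. The members were thus chosen by their level alone, and the rule took 131 genes. The annotation holds 1107 numbered Olfr genes among 35450 quantified genes, so 976 lay under the threshold, and 227 of these had no read in any library. Because the rule used the mean level, the ranking of levels below is a description without a test. Just inside the threshold were Olfr812, Olfr523 and Olfr1257, at 0.205, 0.201 and 0.201 RPM. Just outside were Olfr6, Olfr297 and Olfr1339, at 0.198, 0.198 and 0.193.

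The libraries are of poly(A) RNA from the vomeronasal organ, a paired tube of sensory epithelium in the nose that detects pheromones, of littermate mice aged 60 days. There were 3 wild-type mice (Cnpy1+/+) and 3 knockout mice (Cnpy1-/-), with 2 males and 1 female in each genotype. Wild-type replicate 2 and knockout replicate 3 were the females. The organs of both sides of a mouse went into 1 library after the outer bone had been removed, so each library is a bulk sample of everything that remained.

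Odorant receptors are the G protein-coupled receptors of the main olfactory epithelium, where a mature neuron usually expresses a single one and signals through the G protein subunit encoded by Gnal, adenylyl cyclase 3 and a cyclic nucleotide-gated channel. Vomeronasal neurons mostly use other receptor families (V1R, V2R and formyl peptide receptors) and the channel Trpc2, although odorant receptors are known from some vomeronasal neurons. Class I odorant receptors form the older, fish-like group and lie together in a chromosome 7 cluster, and class II receptors are the larger, land-vertebrate group. The septal organ of Masera is a small island of olfactory epithelium low on the nasal septum, known for neurons that express few receptors, most often Olfr124 (SR1, MOR256-3).

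The receptors with the most reads were diverse in sequence. Each stretch below covers 51 coding bases around the Asp-Arg-Tyr codons, which are in capitals. These codons encode a motif at the inner end of the third membrane segment. The first 9 genes are receptors that the literature lists for the septal organ, shown because all 9 are among the 14 members with the most reads. Olfr536 and Olfr533 are shown because their stretches were identical. The sequences come from the GENCODE M21 transcripts, 5′ to 3′.
Olfr124: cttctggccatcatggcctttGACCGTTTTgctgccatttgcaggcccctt
Olfr1509: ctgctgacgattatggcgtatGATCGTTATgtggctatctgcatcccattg
Olfr455: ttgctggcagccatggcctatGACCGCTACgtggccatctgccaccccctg
Olfr140: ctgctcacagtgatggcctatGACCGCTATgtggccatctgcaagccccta
Olfr1264: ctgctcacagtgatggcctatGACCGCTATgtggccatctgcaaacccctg
Olfr279: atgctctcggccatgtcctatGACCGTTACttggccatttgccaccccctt
Olfr281: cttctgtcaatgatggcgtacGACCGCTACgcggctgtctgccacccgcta
Olfr370: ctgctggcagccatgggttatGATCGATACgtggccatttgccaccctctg
Olfr15: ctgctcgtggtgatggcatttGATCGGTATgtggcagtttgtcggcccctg
Olfr536: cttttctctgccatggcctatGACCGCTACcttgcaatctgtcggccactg
Olfr533: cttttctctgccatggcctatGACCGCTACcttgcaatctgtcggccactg
In Olfr124 the capitals encode Asp-Arg-Phe, and in the other 10 shown they encode Asp-Arg-Tyr. Pairs among the 9 differed at 2 to 20 of the 51 bases, with a median of 14.5. Olfr140 and Olfr1264, from the same chromosome 2 cluster, were the pair with 2 differences. Over the whole protein, the 15 members with the most reads shared 29.2% to 78.8% of residues by pair, with a median of 40.7%, and the closest pair was again Olfr140 with Olfr1264. A looser pattern, which allows some other residues in place of Arg and Tyr, located such a stretch in 129 of the 131 members. This is not a count of members with Asp-Arg-Tyr itself.

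Libraries held 60969508 to 71670766 estimated reads. Cnpy1 lay at 270, 310 and 338 RPM in wild type and at 65.2, 73.3 and 79.8 in the knockouts, in accord with the labels. All 9 vomeronasal neuron markers were detected, including Trpc2, and their summed level was 3135 to 3364 RPM in wild type and 2675 to 3047 in the knockouts. Knockout replicates 2 and 3 stood apart for the odorant receptors. Knockout replicate 3 held the lowest level of 44 of the 131 members (33.6%), against 8.32% of the 16679 genes tested. It was also the highest library for 22 members (16.8%), against 31.1% of genes tested. Knockout replicate 2 was the highest library for 36 members (27.5%), against 5.91% of genes tested. Over all genes tested it was most often the lowest (32.3%).

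A single gene headed the ranking. Levels between genes are compared in TPM, which corrects for transcript length, as the mean ± SD over 6 libraries. Olfr124 had 28.0 ± 10.3 TPM, which was 36.9% of the summed TPM of all members. Its share was 27.0% in the library where it was lowest and 42.5% in the one where it was highest. The gene lies at chromosome 17, 37799888 to 37808617, plus strand (GRCm38), and 99.2% of its 31-base words occur in no other quantified gene. Second came Olfr1509 (Mor83, MOR244-3), a receptor known for its response to a sulfur compound of male mouse urine, with 5.86 ± 1.84 TPM. Its values ranged from 3.55 to 7.74 TPM, below every Olfr124 value. Next were Olfr1512 (1.77 ± 0.41), Olfr455 (1.77 ± 0.59), Olfr692 (1.53 ± 0.54), Olfr140 (1.48 ± 1.09), Olfr279 (1.47 ± 0.74), Olfr536 (1.33 ± 0.44), Olfr281 (1.25 ± 0.59) and Olfr1348 (1.10 ± 0.39). The SDs of these 8 overlap from neighbour to neighbour. All 8 were measured in the same libraries, so that overlap does not settle their order, which was not tested. The 10 highest members held 60.1% of the members' summed TPM. Only 11 members reached a mean of 1 TPM, the median member lay at 0.198 TPM and the lowest at 0.0531. On the scale of the rule, 83 members lay between 0.2 and 0.5 RPM, 21 between 0.5 and 1, 13 between 1 and 2, 12 between 2 and 5, and 2 above 5.

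**Figure D1:**
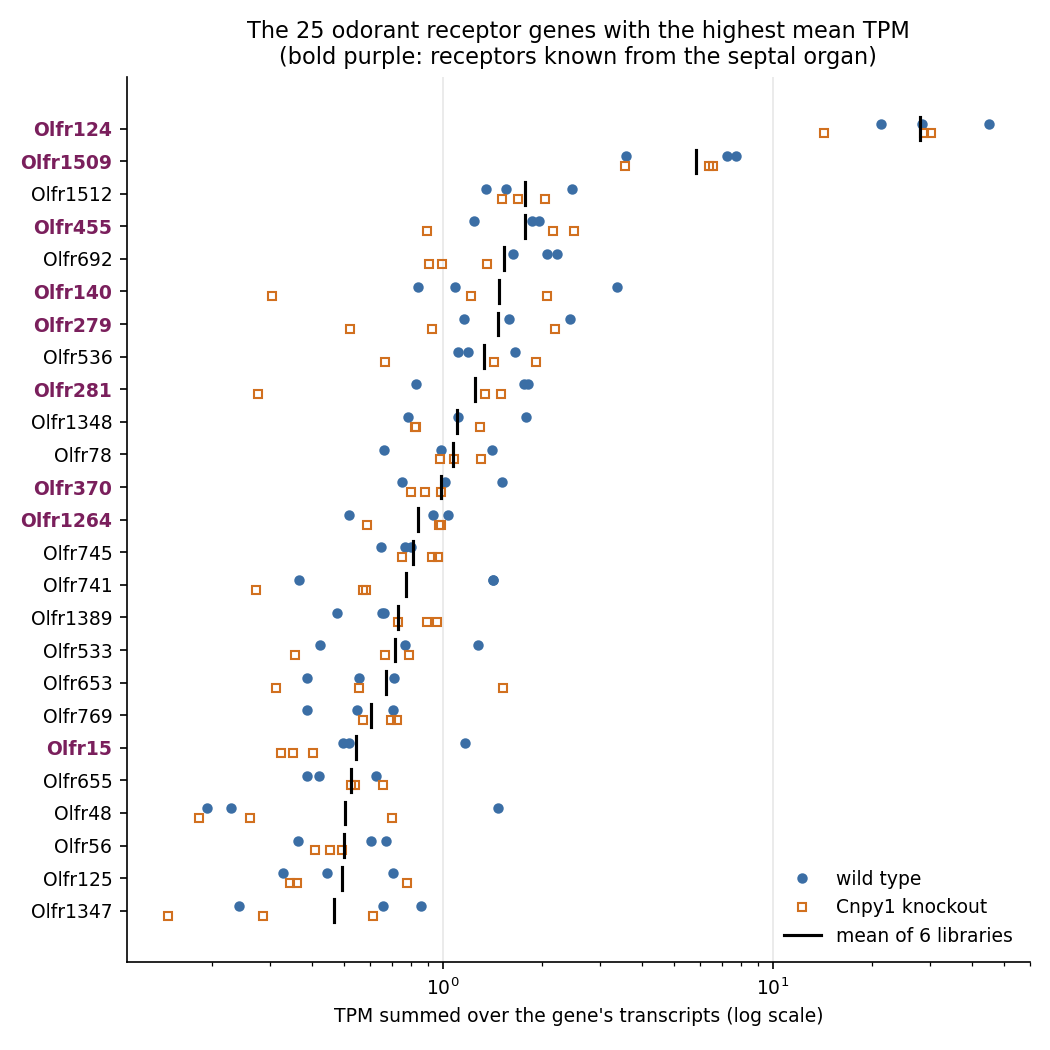
Members with the highest mean TPM, highest at the top, on a log axis: filled circles are the 3 wild-type libraries, open squares the 3 knockout libraries and black ticks the mean of all 6. Olfr124 lies at 28.0 TPM and Olfr1509 at 5.86, and the next 8 genes lie between 1.10 and 1.77. Bold purple names are receptors known from the septal organ.

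The ranking resembled the known receptor list of the septal organ. The list of 9 receptors named as the commonest there was written from general knowledge of the literature, not from a file, and after the levels had been seen, so it carries no test. MOR0-2 was matched to the RefSeq synonym MOR0-2P of Olfr455, so the place of Olfr455 on the list rests on that match. All 9 were members, and all 9 were among the 14 members with the most RPM. Olfr124 ranked 1, Olfr455 (MOR0-2) 2, Olfr1509 3, Olfr281 (MOR160-5) 4, Olfr279 (MOR122-1) 5, Olfr140 (MOR235-1) 7, Olfr1264 (MOR236-1) 9, Olfr370 (MOR267-16) 11 and Olfr15 (MOR256-17) 14. By TPM the lowest of the 9 was Olfr15, at rank 20. Together the 9 held 55.7% of the members' summed TPM, from 40.8% to 61.6% by library.

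Most of these 9 receptors were lowest in the same library, knockout replicate 3, and did not divide by genotype. The highest library was wild-type replicate 3 for 5 of them, wild-type replicate 2 for 2 and knockout replicate 2 for 2. Olfr124 had 50.3, 64.4 and 108 RPM in wild-type replicates 1 to 3 and 66.4, 83.4 and 32.7 in knockout replicates 1 to 3. It was highest in wild-type replicate 3 and lowest in knockout replicate 3, a 3.30-fold span, and the genotypes overlapped. Olfr455 had 3.83, 5.43 and 5.74 in wild type and 6.50, 8.09 and 2.66 in the knockouts. Olfr1509 had 3.00, 5.77 and 6.50 in wild type and 5.24, 6.02 and 2.78 in the knockouts. In both, knockout replicate 3 was lowest and wild-type replicate 1 was next.

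Olfr281 had 2.88, 5.94 and 5.78 RPM in wild type and 4.52, 5.47 and 0.918 in the knockouts. Olfr140 had 2.24, 2.74 and 5.47 in wild type and 3.18, 3.46 and 0.778 in the knockouts. These spans of 6.47-fold and 7.03-fold were the widest of the 9. Knockout replicate 3 was the lowest library for 7 of the 9, and wild-type replicate 1 for the other 2, Olfr1264 and Olfr370. Olfr15 differed from the rest, with 2.29, 2.35 and 2.26 in wild type and 1.64, 2.02 and 1.48 in the knockouts. Its genotypes did not overlap (adjusted p = 0.522 by edgeR).

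Summed over the 9, the level was 70.9, 96.5 and 146 RPM in wild type (105 ± 38.4, SD, n = 3) and 96.6, 120 and 47.3 in the knockouts (87.8 ± 36.9, n = 3). The log2 ratio of the knockout mean to the wild-type mean was -0.25 in RPM and -0.33 in TPM. The RPM ratio was 0.05 without knockout replicate 3, 0.07 without wild-type replicate 3 and -0.01 in males only. It was -0.47 without wild-type replicate 1 and -0.54 without knockout replicate 2, so its sign and size rest on single libraries. In a bulk sample, fewer cells of a type and less RNA per cell cannot be told apart. The sum of the 122 other members varied less, with 61.5, 68.5 and 75.9 in wild type and 74.1, 81.9 and 69.5 in the knockouts. Gene by gene, the highest library exceeded the lowest by a median of 2.83-fold among the 9 and 3.19-fold among the others with a read in every library. The lowest of the 9 averaged 2.01 RPM, while 83 members averaged under 0.5 RPM. Spans of genes with few reads also hold counting scatter, so these medians do not compare like with like.

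Some genes of main olfactory tissue had the same low and high libraries as Olfr124. Cnga2, the channel subunit of main olfactory neurons, had 12.5, 19.6 and 22.2 RPM in wild type and 18.9, 20.8 and 9.23 in the knockouts. Gnal had 33.2, 44.6 and 56.5 in wild type and 47.4, 52.7 and 20.2 in the knockouts. Cyp2g1, an enzyme of olfactory supporting cells and glands, had 68.9, 95.7 and 121 in wild type and 85.8, 111 and 42.6 in the knockouts. Each was lowest in knockout replicate 3, next lowest in wild-type replicate 1 and highest in wild-type replicate 3, as Olfr124 was. These 3 are examples named after their values were seen, and others of the lists differed. Cnga4, another subunit of the channel, had the same extreme libraries within a narrow range of 34.0 to 38.9 RPM. Sult1c1, a sulfotransferase on the supporting cell and gland list, was highest in knockout replicate 3, at 27.6 against 11.1 to 16.9 RPM elsewhere.

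Over the whole lists, 7 of 13 main olfactory neuron markers and 4 of 8 supporting cell and gland markers were lowest in knockout replicate 3. The neuron markers summed to 2647 to 2896 RPM in wild type and 2145 to 2470 in the knockouts, a sum ruled by Gfy, Rtp1 and Kirrel2, which other sensory neurons can share. The 9 of them under 100 RPM summed to 437 to 543 and 379 to 480, with knockout replicate 3 lowest. The supporting cell and gland markers summed to 777 to 1134 and 609 to 1283, where the 1283 of knockout replicate 1 holds 447 RPM of Bpifb9a, which ranged from 0.042 to 447. Without Bpifb9a the sums were 776 to 1134 and 605 to 928, with knockout replicate 3 lowest. All 13 neuron markers were detected in every library. Of the 8 supporting cell and gland markers, Bpifb9b was at 0 in the 3 wild-type libraries. The part of such tissue in the receptor levels was not tested.

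**Figure D2:**
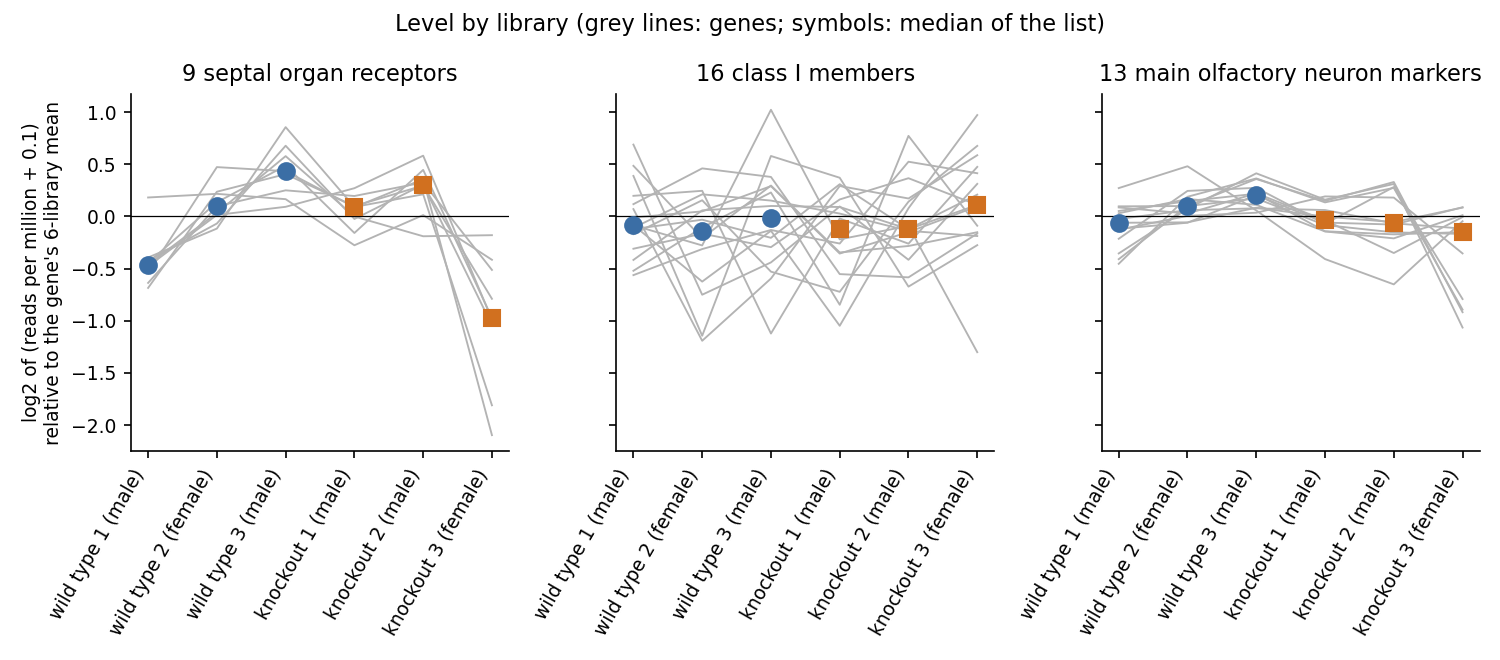
Level in each library relative to the gene's mean over the 6 libraries, as log2 of RPM plus 0.1, for the 9 septal organ receptors, the 16 class I members and the 13 main olfactory neuron markers. Grey lines join the values of a gene and symbols give the list's median. In knockout replicate 3, 7 of the 9 septal organ receptors and 7 of the 13 markers were at their lowest.

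Class I receptors made up 16 of the 131 members (12.2%), close to the 11.2% among the Olfr genes under the threshold. All 16 lay in 1 cluster on chromosome 7, 102476579 to 105369355, which has 127 numbered Olfr genes. Their sum was 12.0, 12.8 and 14.3 RPM in wild type and 12.2, 14.4 and 15.1 in the knockouts, a 1.26-fold span, and knockout replicate 3 was the highest library. The sum of the 9 septal organ receptors, ruled by Olfr124, spanned 3.09-fold. Single class I members varied more than their sum, with spans of 1.37-fold to 11.4-fold and a median of 2.81-fold.

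Among the class I members, Olfr78 had the most reads. It is a receptor for short-chain fatty acids known from blood vessels and the carotid body, and had 2.05, 2.89 and 2.98 RPM in wild type and 2.96, 2.54 and 3.22 in the knockouts. Its neighbour Olfr560 shares 42.7% of its exonic bases with Olfr78 on the same strand, so the reads of these genes can be traded between them. Olfr558, another class I receptor known outside the nose, was the steadiest of all members, with 0.728, 0.935 and 0.893 in wild type and 0.811, 0.712 and 0.685 in the knockouts. Smooth muscle and vessel genes were abundant in all libraries, with Acta2 at 1170 to 1452 RPM, and their part in the level of either receptor was not tested.

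Olfr692 is known from adult vomeronasal neurons that respond to pup odours. It ranked 5 by TPM but 25 by reads, since its only transcript is 1126 bases long and has a single exon. Of 22 receptors with a known ligand or tissue that were looked up, 7 were members: Olfr124, Olfr1509, Olfr78, Olfr692, Olfr558, Olfr17 (P2) and Olfr1507 (MOR28). The last of these averaged 0.280 and 0.238 RPM for Olfr17 and Olfr1507. Olfr920 lay just short of the threshold at 0.192. Olfr160 (M72) had 2 reads in all, and Olfr151 (M71), annotated as a polymorphic pseudogene, and Olfr73 (mOR-EG) had none.

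Members differed widely in how steady they were. A read was present in every library for 130 members, and 48 had fewer than 10 estimated reads in at least 1 library. The highest library exceeded the lowest by a median of 3.15-fold over these 130, from 1.37-fold to 14.2-fold. By the SD of log2 (RPM plus 0.1), the most variable were Olfr448 (1.11), Olfr281 (1.00), Olfr48 (0.92), Olfr968 (0.90) and Olfr140 (0.90). Olfr448 had 0.102, 0 and 0.349 RPM in wild type and 0.0162, 0.583 and 0.249 in the knockouts. Olfr48 was high in wild-type replicate 3 (1.80) and knockout replicate 2 (1.44) and between 0.279 and 0.519 elsewhere. The least variable were Olfr558 (0.16), Olfr1512 (0.18), Olfr624 (0.19), Olfr981 (0.20) and Olfr578 (0.22). Olfr1512 had 2.02, 2.21 and 2.64 in wild type and 2.48, 2.38 and 2.96 in the knockouts. This gene, at rank 3 by TPM, was thus highest in knockout replicate 3, where 7 of the 9 septal organ receptors were lowest. Among the 5 most variable, Olfr448 averaged 0.216 RPM, while Olfr281 and Olfr140 averaged 4.25 and 2.98.

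The members were spread unevenly over the genome. Of all numbered Olfr genes 11.8% were members. On chromosome 14 the share was 46.2% (18 of 39) and on chromosome 15 it was 44.4% (4 of 9), while on chromosome 2 it was 6.38% (18 of 282) and on chromosome 19 it was 0 of 63. Chromosome 7 held the most members, 34 of 240. With neighbouring Olfr genes joined across gaps of up to 1 Mb, 32 of 49 clusters held a member. The chromosome 14 cluster at 49894258 to 52495749 held 15 members among 36 genes. It includes Olfr1512 and also Olfr1507, Olfr1508 (Mor10) and Olfr1509, a group known for the H enhancer beside it. In the 4-member cluster on chromosome 15, 98186013 to 98502637, lie Olfr279 and Olfr281, both on the septal organ list. A cluster of 8 genes on chromosome 7, 6438688 to 6571401, held 5 members, among them Olfr1348.

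**Figure D3:**
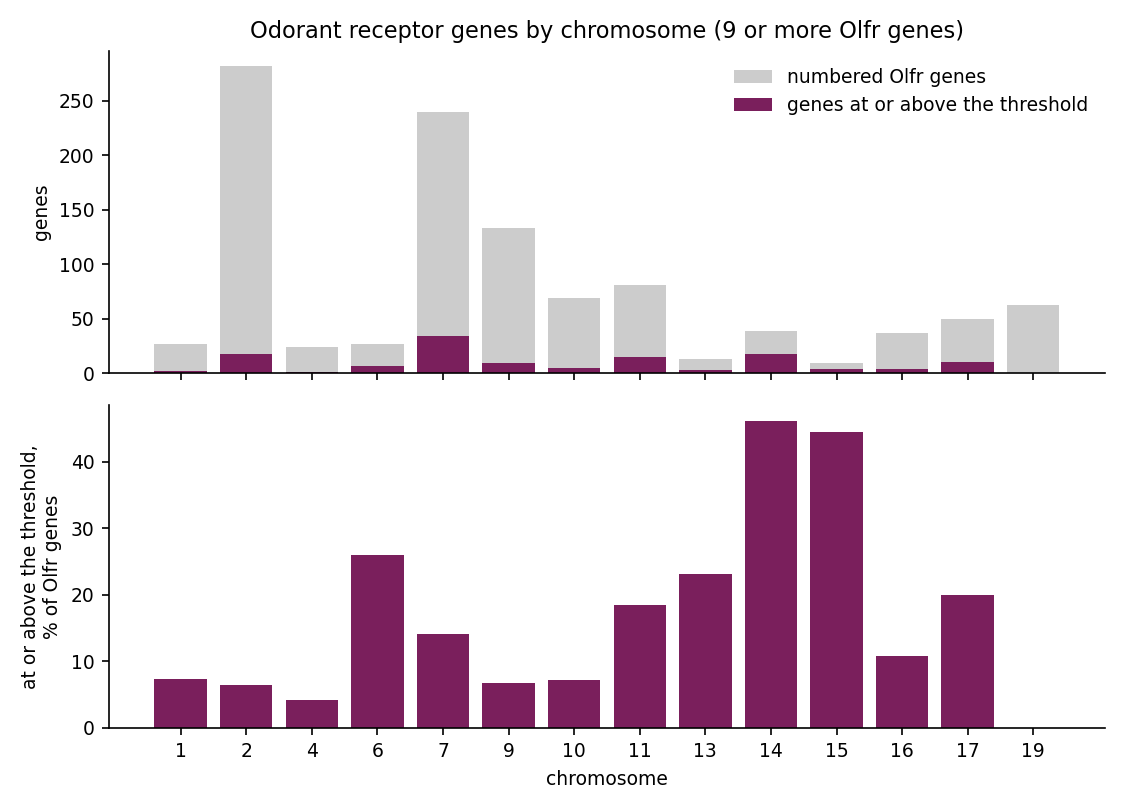
Top, numbered Olfr genes (grey) and those at or above the threshold (purple) on each chromosome with 9 or more Olfr genes. Bottom, the second as a percentage of the first: chromosome 14 reaches 46.2% and chromosome 19 has none.

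All 131 members are annotated as protein-coding. The transcript with the most reads was spliced in 126 of them (96.2%), against 76.2% of the 749 Olfr genes under the threshold that had a read. Odorant receptor genes usually carry their coding sequence in a single exon with a spliced leader upstream. The members' exonic length had a median of 4009 bases, against 2832 under the threshold. The rule counts reads without a correction for length, so it favours long transcripts. Most members can be told from their relatives: over 50% of the 31-base words were unique to the gene in 128 members and over 90% in 85. The 3 exceptions were Olfr239 (20.2% unique) and Olfr55 (36.9%), neighbours on chromosome 17 that share words with each other, and Olfr560 (47.7%), and their levels are uncertain. Exons of 6 members overlapped another gene on the same strand.

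No odorant receptor passed the genotype test. All 131 members passed the filter on low counts. With edgeR's quasi-likelihood test and Benjamini-Hochberg adjustment over 16679 genes, 0 members had an adjusted p under 0.05, against 0.761% of all genes tested. At an unadjusted p under 0.05 there were 16 members (12.2%), against 10.5% of all genes. Of these, 12 were higher in the knockouts (background 4.55%) and 4 lower (background 5.99%). In 20 members (15.3%) the genotypes did not overlap on TMM-scaled values, against 16.2% of all genes. Every knockout lay above every wild type in 14 of these (background 7.22%) and below in 6 (background 8.95%). The median log2 fold change, knockout over wild type, was 0.13 over the members and 0.01 over all genes, but it was -0.07 without knockout replicate 2 and 0.24 in males only. The log2 fold change was above 0 in 71 members (background 52.3%) and below 0 in 60 (background 47.7%). The median SE was 0.41 for a member and 0.09 for any gene tested, so a change of the size of a typical SE would not have been detectable for most members. Among the 9 septal organ receptors, which hold most of the reads, the median SE was 0.37.

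**Figure D4:**
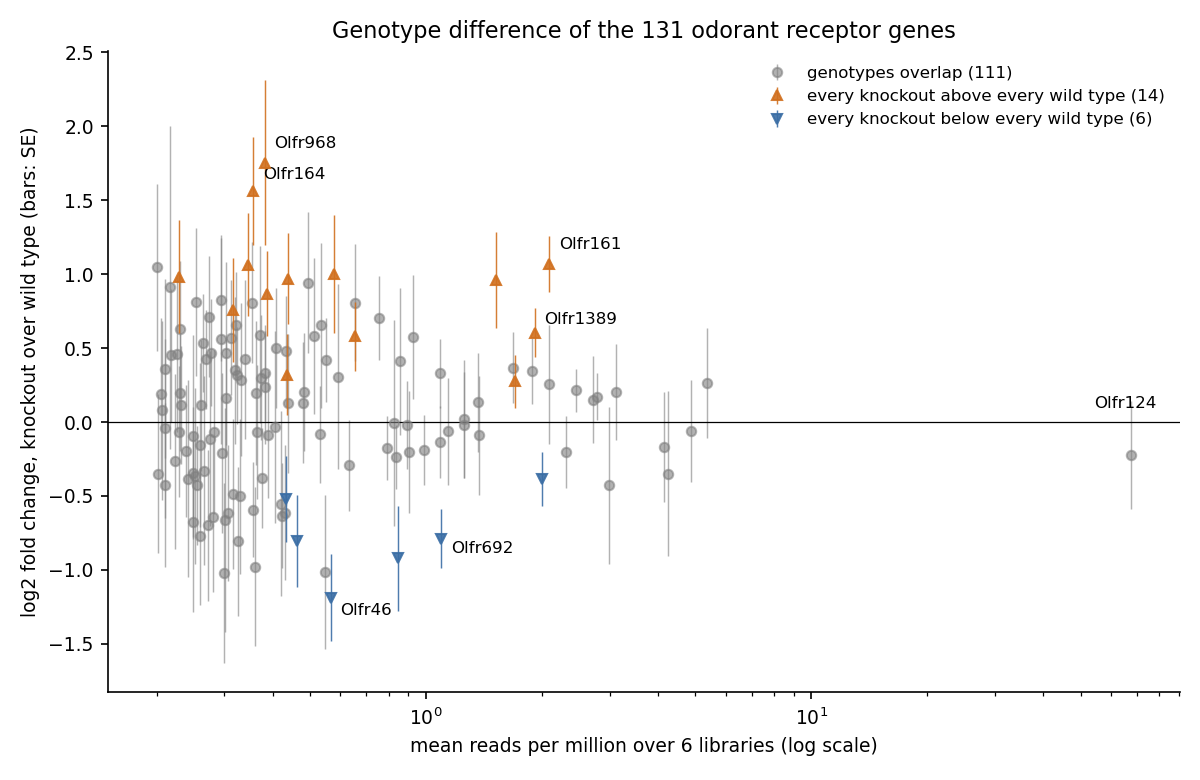
Log2 fold change, knockout over wild type, of each of the 131 members against its mean RPM (log axis), with SE bars. Triangles mark the 20 members whose genotypes do not overlap. Olfr124 lies far to the right at -0.22, and of the labelled genes with a fold change beyond 1 either way, Olfr161 is the only one above 1 RPM.

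Olfr161, a class II receptor on chromosome 16, 3591042 to 3599323, came closest. It had 1.51, 1.33 and 1.24 RPM in wild type and 2.90, 2.19 and 3.38 in the knockouts. Every knockout exceeded every wild type, and no estimate fell below 81 reads. The log2 fold change was 1.07 ± 0.19 (SE), with an unadjusted p of 0.000448 and an adjusted p of 0.0547 by edgeR. It was the only member called in any alternative: DESeq2 (adjusted p = 0.000229), edgeR with robust estimates (0.0319) and edgeR without the filter on low counts (0.0302) called it, and the other alternatives gave an adjusted p of 0.0501 to 0.362. With sex in the model its adjusted p was 0.104, and without knockout replicate 3, its highest library, the log2 fold change was 0.97 (adjusted p = 0.138 by edgeR). Under those 3 alternatives 2.45%, 0.947% and 0.695% of all genes were called.

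The other members with the largest positive fold changes were rarer. Olfr164, also on chromosome 16, had 0.131, 0.197 and 0.223 RPM in wild type and 0.665, 0.567 and 0.358 in the knockouts. The genotypes did not overlap, and the log2 fold change was 1.56 ± 0.37 (adjusted p = 0.155 by edgeR). Olfr968 had 0.291, 0.131 and 0.0977 in wild type and 0.341, 0.389 and 1.04 in the knockouts, with knockout replicate 3 far above the rest. Its log2 fold change was 1.75 ± 0.56 (adjusted p = 0.316 by edgeR), 1.12 without knockout replicate 3 and 0.96 in males only. Olfr145 had 0.146, 0.230 and 0.307 in wild type and 0.535, 0.486 and 0.373 in the knockouts, again without overlap (1.07 ± 0.35). Olfr1257, the member nearest the threshold, had 0.0728, 0.131 and 0.195 in wild type and 0.243, 0.437 and 0.124 in the knockouts. Its genotypes overlapped, and the log2 fold change of 1.05 was 0.47 without knockout replicate 2.

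Among better-covered members, Olfr1389 had 1.28, 1.69 and 1.66 RPM in wild type and 2.51, 2.06 and 2.30 in the knockouts. Its log2 fold change was 0.60 ± 0.17 (adjusted p = 0.233 by edgeR). Olfr77 had 0.947, 0.853 and 1.35 in wild type and 1.35, 2.88 and 1.73 in the knockouts, so knockout replicate 1 and wild-type replicate 3 met on this scale, while on TMM-scaled values every knockout was above every wild type. Its log2 fold change of 0.96 was 0.54 without knockout replicate 2.

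In the other direction, Olfr46 had 0.676, 0.867 and 0.837 RPM in wild type and 0.389, 0.395 and 0.233 in the knockouts. The genotypes did not overlap, and the log2 fold change was -1.19 ± 0.30 (adjusted p = 0.179 by edgeR), and -1.95 with effective lengths as an offset (adjusted p = 0.0726 by edgeR). Without knockout replicate 3, its lowest library, it was -0.95. Only 54.4% of its 31-base words are unique, so part of its level may belong to similar genes. Olfr692, the receptor known from vomeronasal neurons, had 1.19, 1.54 and 1.45 in wild type and 0.714, 0.696 and 0.965 in the knockouts. No knockout value reached the lowest wild-type value, with a log2 fold change of -0.79 ± 0.20 (adjusted p = 0.191 by edgeR), and all of its 31-base words are unique.

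Olfr740 had 0.728, 0.804 and 1.83 in wild type and 0.568, 0.550 and 0.607 in the knockouts, and its log2 fold change of -0.92 was -0.40 without wild-type replicate 3. Olfr1384, Olfr689 and Olfr330 had log2 fold changes of -1.01, -1.02 and -0.98, and their genotypes overlapped. In each of these 3, knockout replicate 3 was the lowest library, as it was for 7 of the 9 septal organ receptors, although knockout replicate 2 was almost as low for Olfr1384 (0.234 against 0.233 RPM). These values rest on few libraries. For Olfr1384 the log2 fold change was -0.41 in males only, -0.75 without knockout replicate 3, -0.67 without wild-type replicate 2, -1.64 without knockout replicate 1 and -1.73 with effective lengths as an offset. For Olfr689 it was -0.37 without wild-type replicate 3 and -0.57 without knockout replicate 3. For Olfr330 it was -0.16 in males only, -0.56 without wild-type replicate 2 and -0.57 without knockout replicate 3.

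**Figure D5:**
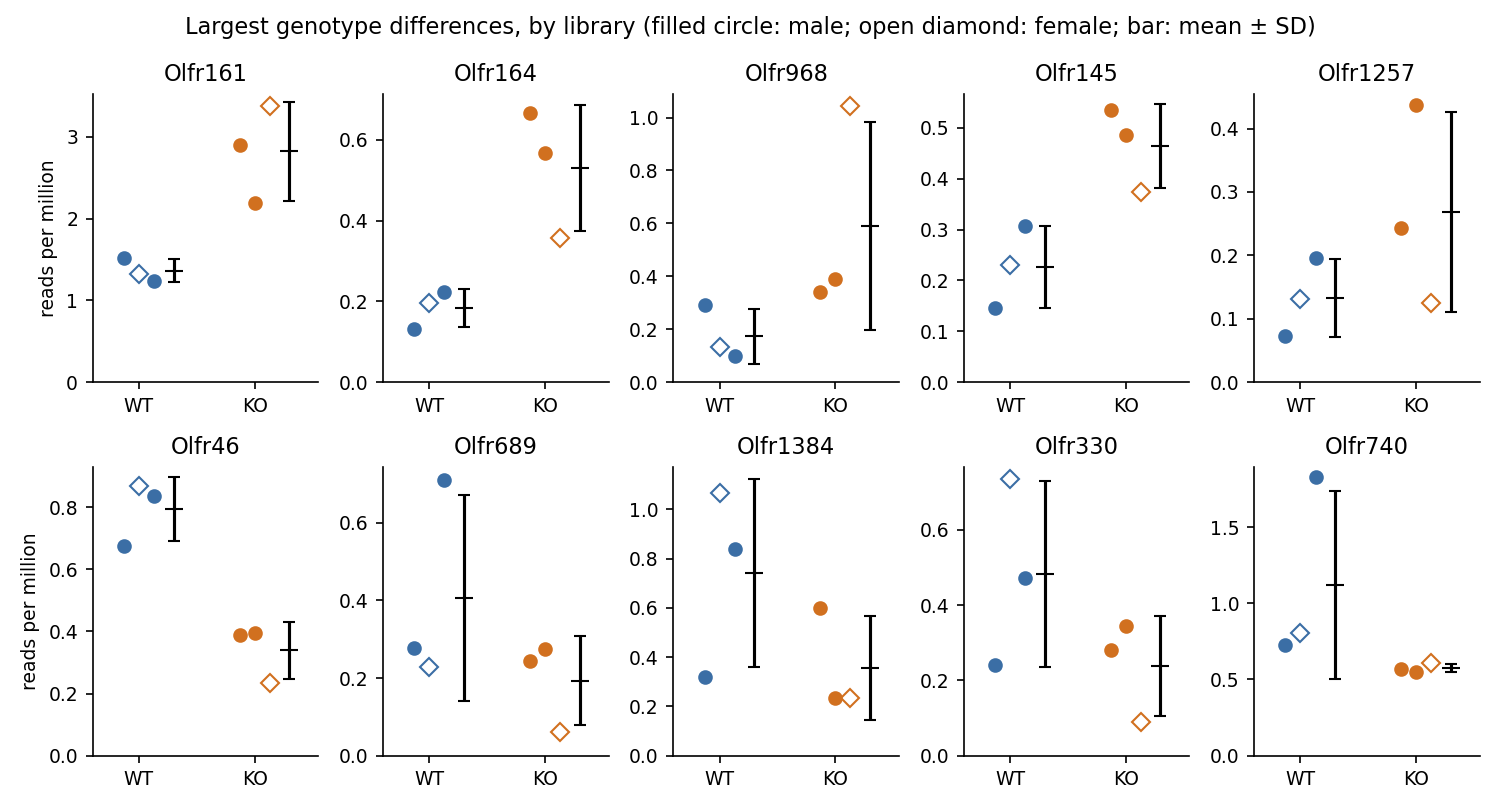
RPM by library for the 5 members with the largest positive (top) and negative (bottom) genotype fold changes. Filled circles are males and open diamonds females, and the bar beside each genotype is the mean ± SD of 3 libraries. Olfr161, Olfr164, Olfr968, Olfr145, Olfr46 and Olfr740 do not overlap between genotypes, and the other 4 do.

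Summed over the members, the genotypes lay close. The sum was 132, 165 and 222 RPM in wild type (173 ± 45.5, SD, n = 3) and 171, 202 and 117 in the knockouts (163 ± 42.9, n = 3). Its log2 ratio, knockout over wild type, was -0.09 in RPM and -0.22 in TPM. The RPM ratio was 0.10 without knockout replicate 3, 0.13 without wild-type replicate 3 and 0.07 in males only. It was -0.25 without wild-type replicate 1 and -0.27 without knockout replicate 2, so its sign rests on single libraries. Without Olfr124 the sum was 99.0 ± 16.1 in wild type and 102 ± 17.1 in the knockouts, a log2 ratio of 0.05 that was -0.07 without wild-type replicate 1 or without knockout replicate 2. In TPM the ratio of this sum had the opposite sign, from 37.7, 51.4 and 61.0 in wild type and 46.3, 51.1 and 38.8 in the knockouts (log2 ratio -0.14). Class I members gave 13.1 ± 1.13 and 13.9 ± 1.54. None of these differences exceeded the SD of a genotype.

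No member passed the test for sex, fitted beside genotype on 4 males and 2 females, against 0.042% of all genes tested by edgeR. At an unadjusted p under 0.05 there were 5 members, against 5.5% of all genes, and DESeq2 also called 0 members. Of the members, 93 had a lower fitted level in females and 38 a higher one, against a background of 50.1% and 49.9%. The median log2 difference, female over male, was -0.29. Knockout replicate 3 is 1 of the 2 females, and without it the median was -0.03, with 69 members lower (background 51.2%) and 62 higher.

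No gene of the lists for odorant receptor choice, trafficking and transduction was called between genotypes by edgeR. Of the choice and trafficking genes 17 were tested, and 4 had an unadjusted p under 0.05 (background 10.5%). On TMM-scaled values the knockouts lay below all wild types in 3 of these, Rtp2, Ebf2 and Atf5 (background 8.95%). They lay above in 1, Bptf (background 7.22%). In RPM only Rtp2 of these did not overlap. Eif2ak3, on the same list, overlapped on TMM-scaled values but not in RPM, with 74.4 to 79.5 in wild type and 65.1 to 72.0 in the knockouts. Rtp2, a trafficking chaperone of the same family as Rtp1, had 126, 139 and 133 RPM in wild type, above every knockout, with a log2 fold change of -0.19 ± 0.05 (adjusted p = 0.241 by edgeR). Emx2, a transcription factor that odorant receptor expression needs, had 81.9, 83.2 and 103 RPM in wild type and 78.7, 68.7 and 85.3 in the knockouts. Rtp1, a chaperone that carries odorant receptors to the membrane, had 310, 310 and 342 in wild type and 322, 311 and 342 in the knockouts. Both overlapped between genotypes.

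Of 15 genes of main olfactory transduction, all were tested, 0 were called by edgeR and 2 by DESeq2 (background 2.45%). An unadjusted p under 0.05 by edgeR was reached by 6 (background 10.5%), Cngb1, Ano2, Gnb1, Pde1c, Gfy and Omp, each with a lower mean in the knockouts. On TMM-scaled values every knockout lay below every wild type in 5 of the 15, all of these but Gfy (background 8.95%), while in RPM Gnb1 overlapped and Gfy did not. Ano2, a chloride channel also found in vomeronasal neurons, had 89.0 to 99.8 RPM in wild type and 76.2 to 77.8 in the knockouts. Its log2 fold change was -0.26 ± 0.06, and its adjusted p of 0.107 by edgeR was the smallest of the 15. Of the list, 8 genes were lowest in knockout replicate 3. The vomeronasal neuron markers share Omp with this list. Of those 9, 7 had an unadjusted p under 0.05, 6 of them lower in the knockouts and Gnai2 higher. On TMM-scaled values the knockouts lay below all wild types in 6 (background 8.95%) and above in 2 (background 7.22%), of which Calr4 and Meis2 overlapped in RPM. Gnao1, the G protein subunit of basal vomeronasal neurons, was called, with a log2 fold change of -0.41 ± 0.05 (adjusted p = 0.0143 by edgeR, against 0.761% of all genes called). The part of such cells in the transduction values was not tested. The 14 trace amine receptors, the other receptor family of the main olfactory epithelium, all averaged under 0.2 RPM. No read was found for 5 of them, and none passed the filter on low counts.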

How the data were processed

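Each deposited table gives, per the file headers, an estimated count and a TPM value for 117081 transcripts of a library. Per the submitters' processing notes, the tools were Trim Galore 0.6.6, Salmon 1.9.0 and DESeq2, and the builds mm10 and GRCm38. Salmon shares out reads that match more than a single transcript, so near-identical receptors can trade reads. Transcripts were joined by identifier to GENCODE M21 (115942 matched, and 0.277% to 0.355% of a library's reads did not), and estimated counts and deposited TPM were summed to genes. RPM values are relative to all estimated reads of a library. The design had assumed whole counts, so sums were rounded for edgeR 4.0.16 (R 4.3.3). The test was its quasi-likelihood F test with TMM scaling, filterByExpr and genotype as the only term, or genotype and sex for the sex test. A gene with an adjusted p under 0.05 is described as called. The SE is the log2 fold change divided by the square root of F. DESeq2 1.42.0, limma 3.58.1 and other settings were alternatives.

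Class was the higher mean protein identity to 4 class I or 6 class II receptors. The septal organ list was written from general knowledge and matched by RefSeq synonyms (GRCm38.p6), MOR0-2 through MOR0-2P. The members and all lists were chosen with earlier results of these data known. Named are the 10 members highest by TPM, the 5 with the largest fold change in each direction, those nearest the threshold, the 5 most and least variable, and studied receptors; the septal organ receptors, Olfr77, Olfr1389 and receptors named as neighbours were added after their values were seen. RefSeq promoter windows were not printed, because only 11 of the 109 found start within 100 bases of the transcript with the most reads. Each library is 1 mouse and 1 replicate. Same-numbered libraries of the 2 genotypes deviated with correlations of 0.15, -0.09 and 0.23, so the numbers were not taken to pair the mice. The common biological coefficient of variation was 12.8%.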

Additional observations from a re-analysis of the deposited data

How the results depend on the processing

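The count of 0 members called between genotypes became 1 (Olfr161) with DESeq2, with robust estimates and without the filter on low counts, and stayed 0 with RLE or no scaling, limma-voom, effective lengths, sex as a term, males only, other thresholds for membership and each library left out. Olfr161 kept a log2 fold change of 1.07 under those 3 settings. Of the 219 members at a threshold of 0.1, 166 passed the filter on low counts and were tested. In males only, 130 of the 131 members were tested. With the replicate number as a block, 0 members and 154 genes were called between genotypes, and the sex test called 23 genes and 0 members. Genes called between genotypes (127) numbered 409 with DESeq2, 76 in males only and 69 to 96 with a library left out. Genes called between sexes (7) numbered 58 with DESeq2, 12 without the filter and 4 to 10 with a library left out. The members' median log2 fold change between genotypes (0.13) ran from -0.073 (without knockout replicate 2) to 0.22 with a library left out and was 0.24 in males only, and that between sexes (-0.29) from -0.43 to -0.033 (without knockout replicate 3). The fold change of Olfr124 (-0.22) changed sign to 0.0048 in males only and to 0.12 and 0.10 without wild-type replicate 3 or knockout replicate 3, within a range of -0.55 to 0.12. Thresholds of 0.1, 0.5 and 1 gave 219, 48 and 27 members, and the 10 highest members then held 55.3%, 72.9% and 81.7% of the members' TPM, by construction more as members drop out. Apart from the settings with fewer samples or genes, the cause of a change was not tested. With 48 members under 10 reads in some library, depth limits what can be seen of rare receptors.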
